A study of Homo sapiens with 18 samples.

Results

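GDF15, INHBE, ADM2, STC2, VEGFA and ERFE are genes of secreted signalling proteins that cells are known to make under stress or, for ERFE, in response to erythropoietin. These 6 genes were followed, by symbol, among the 35616 genes of an RNA-seq table of human erythroid cells. The cells were HUDEP-2, an immortalised progenitor line from umbilical cord blood, either unedited (WT) or with the beta-globin gene HBB knocked out (HBBko). Libraries were made from undifferentiated cells, after 48 h and after 5 d of differentiation, which gives 6 groups of 3 libraries: WT and HBBko at each of the 3 stages. All 6 groups share the HUDEP-2 background, and the labels do not give the number of HBBko clones or say whether the triplicates were started independently. P-values therefore measure the spread between these libraries, which may be technical. The genes were chosen with their values in all 6 groups known, so their own levels and differences are given as a description, and no test or call of them is reported. The name stress-induced comes from other settings: here the 6 genes were lower in HBBko than in WT cells wherever the groups did not overlap, on the authors' scaling.

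The integrated stress response is a signalling pathway in which kinases, among them the heme-regulated kinase EIF2AK1 of erythroid cells, phosphorylate the translation factor eIF2alpha, which lowers general protein synthesis and raises translation of the transcription factor ATF4. ATF4, with partners such as CEBPB, CEBPG and DDIT3, then raises genes of amino acid supply and several secreted factors, among them GDF15, INHBE, ADM2, STC2 and VEGFA. ERFE, or erythroferrone, belongs to a different axis: erythroblasts secrete it under erythropoietin through STAT5, and it lowers hepcidin, the liver hormone that restricts iron release into plasma.

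Values are scaled TPM, a transcript abundance (TPM) that corrects for transcript length and that the authors scaled further between libraries. The library sums ran from 783213 to 1508342, and the read depth is unknown. HBB itself lay between 12454 and 22376 scaled TPM in undifferentiated WT and between 4598 and 4983 in undifferentiated HBBko libraries. At 48 h the ranges were 99196 to 132741 and 22101 to 24265, and at 5 d 427628 to 458719 and 69004 to 72650, so every HBBko library lay below every WT library of its stage. All 16 erythroid markers were detected in each group. Of the erythroid markers 9 fell and 0 rose in undifferentiated HBBko cells (limma, adjusted p under 0.05), where 22.3% of all tested genes fell. At 48 h 4 fell and 0 rose, against 9.21% fallen. At 5 d 4 rose and 4 fell, against 26.5% and 24.8%. Mitochondrial genes held 9.75% to 11.4% of the sum in undifferentiated WT and 10.1% to 10.4% in undifferentiated HBBko libraries, which overlapped. At 48 h they held 5.04% to 5.72% in WT and 7.18% to 7.79% in HBBko libraries. At 5 d they held 1.34% to 1.46% and 2.29% to 2.97%. Globin genes held 50.5% to 52.1% of the same sum in WT and 38.6% to 39.9% in HBBko libraries at 5 d. A difference in maturation between the lines was not tested. The summed lymphoid markers reached at most 0.971 scaled TPM and the summed stromal, endothelial and hepatocyte markers at most 0.829 in any library. Summed myeloid markers reached at most 3.46. Summed megakaryocyte markers were at 4.33 to 4.74 in undifferentiated WT and at 1.72 to 2.12 in undifferentiated HBBko libraries. Summed mast cell, basophil and eosinophil markers were at 588 to 796 in undifferentiated WT and at 918 to 1053 in undifferentiated HBBko libraries, with 2 of 9 at 0 in both, and their part in the differences of the secreted factors was not tested. In bulk RNA, fewer cells that express a gene and less RNA per cell cannot be told apart.

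Replicate 3 of the undifferentiated WT group stood apart for these genes. It was the highest library of its group for 6 of 6 factors, while 36.5% of all tested genes were highest in it. Its level over the mean of the other replicates was 1.85 for GDF15, 2.75 for INHBE, 2.18 for ADM2, 1.85 for STC2, 1.36 for VEGFA and 1.57 for ERFE. In the same library ATF4 was at 1.37, DDIT3 at 1.56, CHAC1 at 2.32 and HBB at 1.79 times the mean of the others. Replicate 3 of WT at 48 h was the highest of its group for 5 of 6 factors, all but INHBE, with GDF15 at 1.71 and ADM2 at 1.99 times the others and 33.4% of all tested genes highest in it. Differences of the 6 factors are given below with and without these libraries, at 48 h for all but INHBE. Those of ATF4, DDIT3 and CHAC1 are given only with them.

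**Figure D1:**
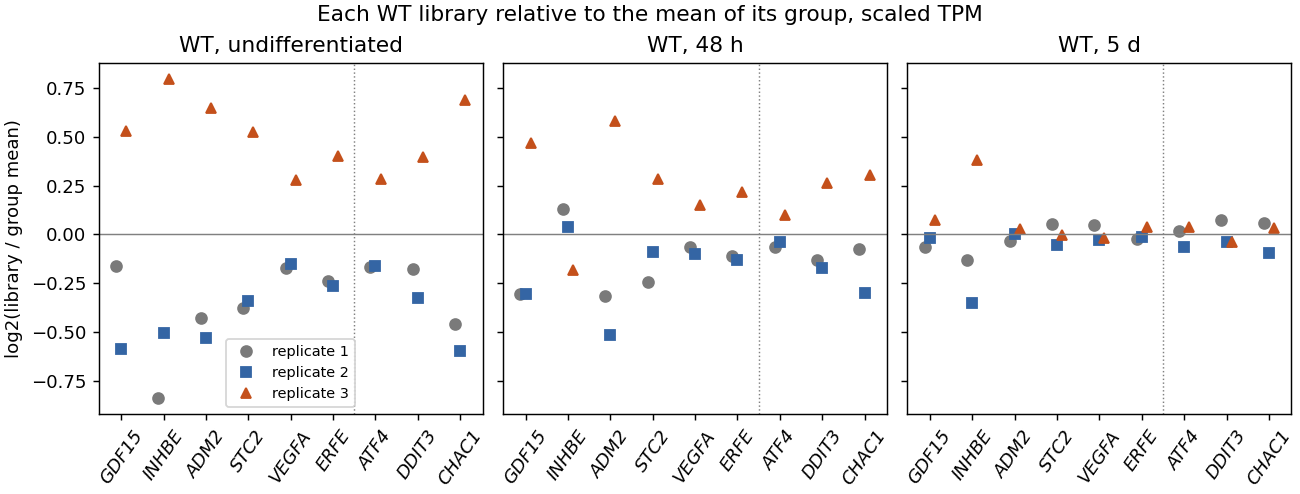
Log2 ratio of each WT library to the mean of its group (y axis, no unit) for the 6 secreted factors and for ATF4, DDIT3 and CHAC1 (x axis), with 1 panel per stage and 1 symbol per replicate. Replicate 3 is the highest library for 6 of 6 factors in undifferentiated cells and for 5 of 6 at 48 h, while at 5 d the libraries lie close together except for INHBE.

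Promoter windows from RefSeq (GRCh38.p14), which run from 250 bases before to 50 bases after the start, were matched by symbol for 4 of 6 factors: GDF15, ADM2, STC2 and ERFE. The sequences show where letters of the hypoxia element (ADM2 and STC2) or of the TATA box (GDF15 and ERFE) stand near the start of each gene. Each is printed 5′ to 3′ on the gene's own strand with the matched letters in capitals. GDF15 and STC2 are shown as 30 bases around the match because the GENCODE annotation places a longer untranslated exon of each gene there, and ADM2 and ERFE as the 250 bases before the start.
GDF15, chr19:18386117-18386146, plus strand, capitals mark TATAAN: aagtccggggacTATAAAggccggtccggc
STC2, chr5:173328626-173328655, minus strand, capitals mark GCGTG on either strand: catacaCACGCACGCaaacGCGTGgccgcc
ADM2, chr22:50481293-50481542, plus strand, capitals mark GCGTG: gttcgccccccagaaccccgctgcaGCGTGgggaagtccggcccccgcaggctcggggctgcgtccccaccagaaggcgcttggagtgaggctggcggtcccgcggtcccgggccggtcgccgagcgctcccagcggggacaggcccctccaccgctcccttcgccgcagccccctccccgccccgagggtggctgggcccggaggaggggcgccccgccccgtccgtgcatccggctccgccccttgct
ERFE, chr2:238158720-238158969, plus strand, capitals mark 2 overlapping matches of TATAAN, 1 on each strand: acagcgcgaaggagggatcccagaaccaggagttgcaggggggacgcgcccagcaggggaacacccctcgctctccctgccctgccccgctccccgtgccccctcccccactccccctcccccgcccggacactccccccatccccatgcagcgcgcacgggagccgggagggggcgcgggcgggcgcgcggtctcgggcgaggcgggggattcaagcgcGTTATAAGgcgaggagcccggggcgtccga

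The letters TGATGNAA, a form of the composite element that C/EBP and ATF factors bind, were searched on both strands and occurred in 0 of the 4 windows, against 3.62% of all 35116 promoter windows. For comparison, windows of 2 ATF4 target genes hold it, and 30 bases around the match are shown so that the element can be seen beside the promoters that lack it in this window.
ASNS, chr7:97872458-97872487, minus strand, capitals mark TGATGNAA: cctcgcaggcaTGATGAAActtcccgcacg
CHAC1, chr15:40953251-40953280, plus strand, capitals mark TGATGNAA on the opposite strand: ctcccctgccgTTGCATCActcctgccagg
ACGTG or GCGTG, the core of the hypoxia element, occurred in 2 of 4 windows (ADM2 and STC2), against 48.4% of all windows. TATAAN was in 2 of 4 (GDF15 and ERFE), against 20.4%, and GGGCGG, the GC box, in 3 of 4 (GDF15, ADM2 and ERFE), against 44.95%. TTCNNNGAA, the STAT5 element, was in 0 of 4 windows against 7.66%, and the GATA element AGATAA, also searched as TGATAA, in 0 of 4 against 16.3%. A match is a description of these letters, and elements outside the windows were not searched.

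The most abundant of the 6 transcripts in WT cells at 5 d was GDF15, which encodes growth differentiation factor 15, a distant member of the TGF-beta family that acts on the brainstem receptor GFRAL (chr19:18386158-18389176, GRCh38.p14). WT libraries held 11.5, 8.58 and 18.6 scaled TPM undifferentiated, 43.8, 43.9 and 75.0 at 48 h and 921, 950.3 and 1014 at 5 d. HBBko libraries held 6.44, 6.56 and 5.83, then 18.8, 17.9 and 19.3, then 432, 458 and 371. The lines did not overlap at any stage, and within each line every later stage lay above the earlier one. The mean was 962 ± 47.7 (SD, n = 3) in WT at 5 d, at the 99.0th percentile of the tested genes, and 420.5 ± 44.7 (SD, n = 3) in HBBko. WT means were 2.05, 2.91 and 2.29 times the HBBko means undifferentiated, at 48 h and at 5 d. From undifferentiated cells to 5 d the mean was 74.6 times higher in WT and 67.0 times in HBBko, with the greater step after 48 h (17.7 and 22.6 times). Ordered by mean, the groups ran from WT 5 d over HBBko 5 d, WT 48 h, HBBko 48 h and WT undifferentiated to HBBko undifferentiated. Of these neighbours, HBBko at 48 h and undifferentiated WT overlapped. On the log2(scaled TPM + 1) scale the HBBko minus WT difference was -0.87 ± 0.20 (SE) undifferentiated, -1.45 ± 0.20 at 48 h and -1.20 ± 0.20 at 5 d. It was -0.59 without replicate 3 of undifferentiated WT and -1.19 without replicate 3 of WT at 48 h.

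INHBE encodes the beta E subunit of inhibin and activin, a liver-enriched TGF-beta family protein (chr12:57455307-57458025). Undifferentiated WT libraries held 3.16, 3.98 and 9.81 scaled TPM and undifferentiated HBBko libraries 0.224, 0.236 and 0.264. At 48 h the WT libraries were at 0.0573, 0.0539 and 0.0462 and the HBBko libraries at 0.0211, 0.0361 and 0.0501. At 5 d they were at 0.769, 0.659 and 1.10 in WT and at 0.687, 0.698 and 0.739 in HBBko. The lines were thus apart in undifferentiated cells, where the WT mean was 23.4 times the HBBko mean, and overlapped at 48 h and 5 d. Its order of levels differed from that of the other factors, with undifferentiated WT on top (5.65 ± 3.63, SD, n = 3), then both 5 d groups, then undifferentiated HBBko and last both 48 h groups. INHBE reached 1 scaled TPM in 4 of 18 libraries, the 3 of undifferentiated WT and 1 of WT at 5 d. It entered the tested genes through those libraries only and so had to differ between lines or stages. The difference on the log2(scaled TPM + 1) scale was -2.29 ± 0.22 undifferentiated (-1.87 without replicate 3 of WT), -0.02 ± 0.22 at 48 h and -0.10 ± 0.22 at 5 d. At 5 d it was -0.0043 without replicate 3 of WT.

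ADM2, which encodes adrenomedullin 2 or intermedin, a vasoactive peptide of the calcitonin family (chr22:50481543-50486437), was low in HBBko cells until 5 d. WT libraries held 5.36, 5.00 and 11.3 scaled TPM undifferentiated, 1.28, 1.12 and 2.39 at 48 h and 15.0, 15.4 and 15.6 at 5 d. HBBko libraries held 0.415, 0.523 and 0.346, then 0.177, 0.237 and 0.138, then 8.50, 7.24 and 5.79. The lines did not overlap at any stage, and WT means were 16.9, 8.70 and 2.14 times the HBBko means. Both lines were lowest at 48 h and highest at 5 d. In the order of levels, undifferentiated WT (7.22 ± 3.54, SD, n = 3) and HBBko at 5 d (7.18 ± 1.36) overlapped, and no other neighbours did. The difference on the log2(scaled TPM + 1) scale was -2.45 ± 0.21 undifferentiated, -1.10 ± 0.21 at 48 h and -1.01 ± 0.21 at 5 d. It was -2.12 and -0.90 at the first 2 stages without replicate 3 of the WT group concerned.

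STC2 encodes stanniocalcin 2, a glycoprotein hormone that inhibits the protease PAPPA and is a known ATF4 target (chr5:173314723-173328414). WT libraries held 2.59, 2.66 and 4.85 scaled TPM undifferentiated, 1.23, 1.38 and 1.78 at 48 h and 11.96, 11.1 and 11.5 at 5 d. In HBBko they held 0.453, 0.857 and 0.481, then 0.185, 0.481 and 0.245, then 1.84, 1.95 and 1.38. The lines did not overlap at any stage. WT means were 5.64, 4.82 and 6.68 times the HBBko means, so STC2 at 5 d had the widest ratio of the 6 factors at that stage. In the order of levels WT at 5 d was followed by undifferentiated WT, HBBko at 5 d, WT at 48 h, undifferentiated HBBko and HBBko at 48 h, the last pair overlapping. The 5 d mean in HBBko, 1.72 ± 0.305 (SD, n = 3), overlapped WT at 48 h, 1.46 ± 0.284. On the log2(scaled TPM + 1) scale the differences were -1.42 ± 0.16, -0.92 ± 0.16 and -2.21 ± 0.16. Without replicate 3 of WT the first was -1.19 and the second -0.83.

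VEGFA, vascular endothelial growth factor A, is the main angiogenic growth factor and a target of both hypoxia-inducible factors and ATF4 (chr6:43770211-43786487). WT libraries held 124, 126 and 169.8 scaled TPM undifferentiated, 85.4, 83.5 and 99.2 at 48 h and 326, 309 and 311 at 5 d. HBBko libraries held 59.3, 52.8 and 61.7, then 62.9, 61.1 and 65.4, then 188, 175 and 155. The lines did not overlap at any stage, with WT means 2.42, 1.42 and 1.82 times the HBBko means. VEGFA was the most abundant of the 6 transcripts in undifferentiated cells, at 140 ± 25.9 (SD, n = 3) in WT and 57.9 ± 4.65 in HBBko. The WT mean at 48 h was 0.639 times the undifferentiated mean without overlap, whereas in HBBko the ratio was 1.09 and the stages overlapped. In the order of levels HBBko at 5 d overlapped undifferentiated WT, HBBko at 48 h overlapped undifferentiated HBBko, and no other neighbours did. On the log2 scale the line difference was -1.25 ± 0.10 undifferentiated, -0.49 ± 0.10 at 48 h and -0.87 ± 0.10 at 5 d (-1.10 and -0.41 at the first 2 stages without replicate 3 of WT). The GENCODE annotation places an antisense transcript within VEGFA, and whether the quantification used strand is not given in the sources used here.

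ERFE, the erythroid hormone of iron supply (chr2:238158970-238168890), showed the narrowest ratio between the lines at 5 d on the authors' scaling. WT libraries held 58.7, 57.7 and 91.6 scaled TPM undifferentiated, 185, 183 and 233 at 48 h and 681, 684 and 709 at 5 d. HBBko libraries held 23.7, 25.9 and 26.1, then 112, 118 and 119, then 626, 621 and 598. No HBBko library reached a WT library of its stage, yet the ratio of means went from 2.75 undifferentiated over 1.72 at 48 h to 1.12 at 5 d. Levels followed the stage first: HBBko at 48 h (117 ± 3.62, SD, n = 3) lay above undifferentiated WT (69.3 ± 19.2), and no neighbouring groups overlapped. The mean at 5 d was 9.97 times the undifferentiated mean in WT and 24.4 times in HBBko. Line differences on the log2 scale were -1.39 ± 0.13, -0.77 ± 0.13 and -0.17 ± 0.13. Without replicate 3 of WT the first was -1.18 and the second -0.66. Rescaling each library to the same sum turned the difference at 5 d to 0.17, while INHBE, at 0.04, then lay nearer to 0.

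**Figure D2:**
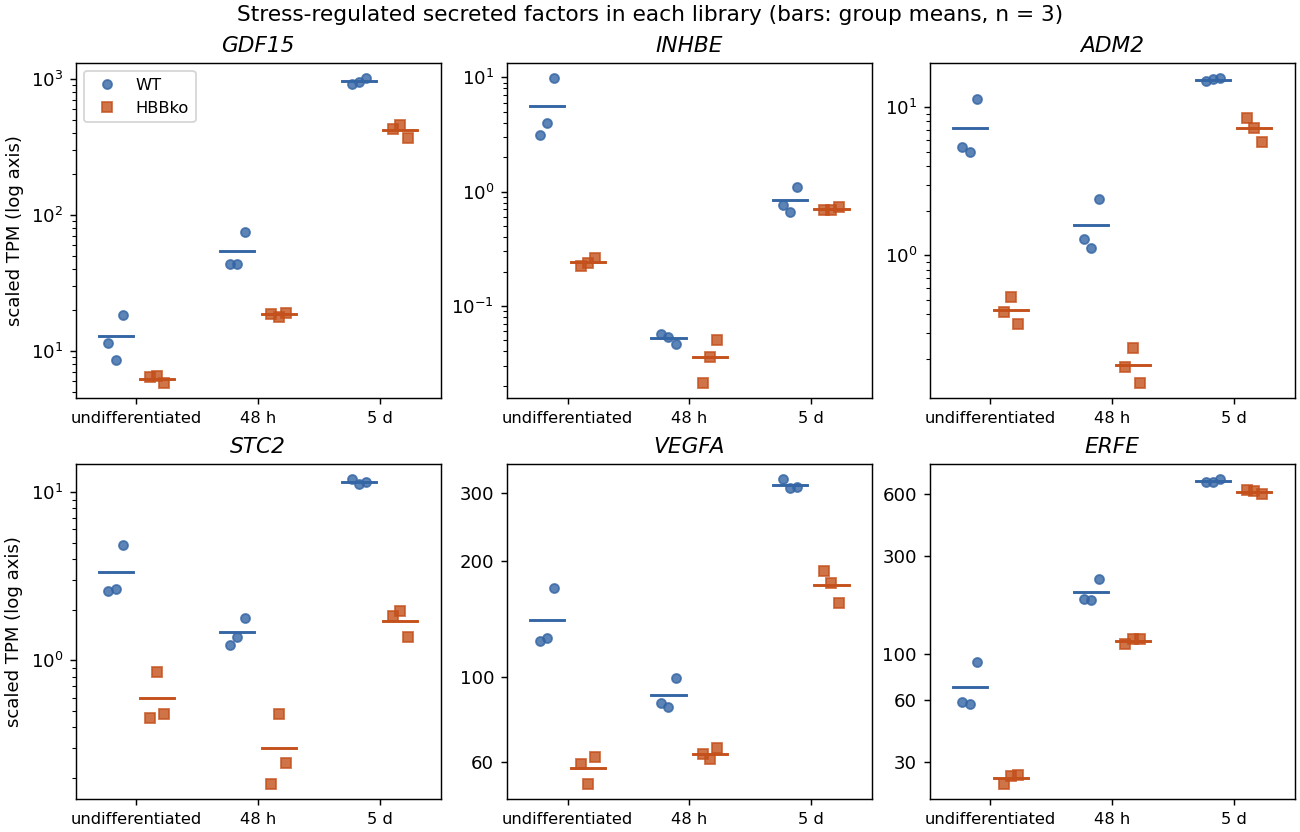
Scaled TPM of the 6 secreted factors in each of 18 libraries (y axes, logarithmic) at 3 stages (x axes), with 1 panel per gene; circles are WT, squares HBBko, and bars group means (n = 3). HBBko libraries lie below WT libraries of the same stage in every panel except for INHBE at 48 h and 5 d, and GDF15 in WT reaches 921 to 1014 at 5 d.

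Read as a group, the 6 factors passed the filter on low values, which asked for 3 or more libraries with 1 scaled TPM or more, and were among the 12005 genes fitted. Every HBBko library lay below every WT library for 6, 5 and 5 factors at the 3 stages, against 23.4%, 22.4% and 28.7% of all tested genes. Because these differences were known when the genes were chosen, the counts are given as a description only. The median log2 difference of the 6 was -1.41, -0.84 and -0.94, beside medians of -0.01, 0.02 and 0.02 over all tested genes. Rescaling each library to the same sum moved the median of all genes to 0.14 at 48 h and 0.27 at 5 d and turned the sign of ERFE (as given above) and of INHBE at 5 d (0.04). On that scaling GDF15 at 5 d was at -0.86, ADM2 at -0.69, STC2 at -1.84 and VEGFA at -0.53. The median of all genes at 5 d was -0.01 after median-of-ratios scaling, 0.03 after quantile normalization and 0.03 with the globin genes removed.

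The authors' deposited tables of line differences gave larger sizes for the low genes than the fit on log2(scaled TPM + 1), a scale that pulls values near 1 toward 0. In undifferentiated cells the authors' deposited table lists INHBE at a log2 fold change of -4.32 (SE 0.512), ADM2 at -3.99 (SE 0.422) and STC2 at -2.45 (SE 0.417). For GDF15 the authors' deposited tables list -0.97, -1.51 and -1.21 at the 3 stages, close to the fitted values above. ERFE stands in the authors' deposited tables at -1.44, -0.79 and -0.17.

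**Figure D3:**
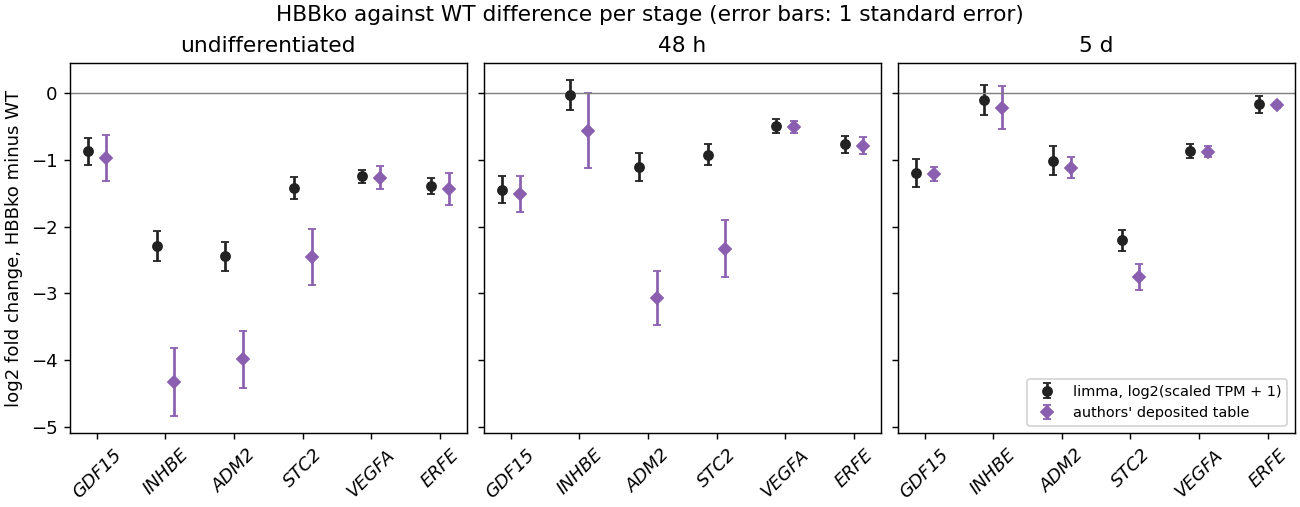
Log2 fold change of HBBko minus WT (y axis) for the 6 secreted factors (x axis) at each stage, fitted here on log2(scaled TPM + 1) (circles) and in the authors' deposited tables (diamonds), with error bars of 1 SE. GDF15, VEGFA and ERFE lie close together in both sources, while INHBE, ADM2 and STC2 are lower in the authors' tables where HBBko levels are under 1 scaled TPM. STC2 is also lower there at 5 d (-2.75 against -2.21), where HBBko libraries held 1.38 to 1.95 scaled TPM.

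Many factors of the integrated stress response were lower in HBBko cells too, and whether they act on the 6 genes here was not tested. The list of these factors and the lists below were chosen with earlier results of these data known. Their counts beside the shares of all tested genes are a description. Of 14 integrated stress response factors, 10 fell and 1 rose in undifferentiated HBBko cells, with a median log2 difference of -0.71, where 22.3% of all tested genes fell and 20.9% rose (limma, adjusted p under 0.05). At 48 h 7 of 14 fell (median -0.27), against 9.21% of all tested genes, and at 5 d 8 of 14 (median -0.46), against 24.8%, and the others did not pass the test. ATF4 was at 578 scaled TPM in undifferentiated WT and 292 in undifferentiated HBBko cells (log2 difference -0.97 ± 0.09, adjusted p = 9.73e-07). It was at 394 and 267 at 48 h (-0.56 ± 0.09), and at 732 and 731 at 5 d, where the difference was -0.0043 ± 0.09 and the lines overlapped. DDIT3, the stress factor CHOP, fell at each stage, by 1.13, 0.63 and 1.33 on the log2 scale. TRIB3, a pseudokinase that feeds back on ATF4, fell by 1.72, 1.61 and 2.44, ATF3 fell by 2.05, 1.54 and 1.19, and CEBPB fell by 1.41, 0.86 and 1.08. GDF15, ADM2, STC2, VEGFA and ERFE were lower in every HBBko library than in any WT library at 5 d, as were 28.7% of all tested genes. All these levels are RNA, and the part of ATF4 in these differences was not tested. The 1 factor that rose, EIF2AK2, lost its call without replicate 3 of undifferentiated WT or without any undifferentiated HBBko library, and at 5 d leaving out 1 library added at most 2 risen factors (2 without replicate 3 of undifferentiated WT). With the replicate number as a block, overall or within each stage, 1 rose at 5 d. Rescaling to equal sums added 6 risen factors at 5 d, and 86% of all calls at 5 d were then higher in HBBko (51.7% before).

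ATF4 target enzymes and transporters of amino acid metabolism moved the same way. Of 29 tested, 27 fell and 1 rose in undifferentiated cells (median -1.12), 25 fell at 48 h (median -0.70) and 21 at 5 d (median -0.52). Of all tested genes 22.3% fell and 20.9% rose in undifferentiated cells, and 9.21% fell at 48 h and 24.8% at 5 d. CHAC1, which degrades glutathione, fell by 3.60, 2.28 and 1.20 on the log2 scale. SESN2, a leucine sensor, was at log2 differences of -2.34, -1.55 and -1.79, and PSAT1 of serine synthesis at -2.24, -1.76 and -0.52, each past the test. After rescaling to equal sums 5 of the 29 rose at 5 d, where 86% of all calls were then higher in HBBko. Without replicate 3 of undifferentiated WT or replicate 2 of WT at 5 d 1 rose.

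Other secreted factors known to respond to stress did not share one direction. Of 32 listed, 12 were expressed enough to be tested. In undifferentiated HBBko cells 5 rose and 3 fell, where 20.9% and 22.3% of all tested genes did: MANF, an ER stress-induced neurotrophic factor, rose by 1.03 ± 0.08 (adjusted p = 1.49e-07), the cytokine LIF by 1.03 ± 0.15 and MIF by 0.65 ± 0.09, while PDGFA fell by 1.40. At 48 h 3 rose and 2 fell, against 9.52% and 9.21% of all tested genes, with LGALS3, or galectin 3, at -0.80 ± 0.07. At 5 d 6 fell and 1 rose, against 24.8% and 26.5% of all tested genes, and OSM, a STAT5 target cytokine, was at -1.05 ± 0.10 and TGFB1 at -0.52 ± 0.11. The count of risen factors at 5 d was 0 without any 1 of the WT 5 d libraries or of replicates 2 and 3 of HBBko at 5 d, and 2 without replicate 1 or 3 of undifferentiated WT. After rescaling to equal sums 3 fell and 2 rose at 5 d, where 86% of all calls were then higher in HBBko. With a replicate block within each stage 2 rose. The medians of the list were 0.18, -0.03 and -0.21.

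**Figure D4:**
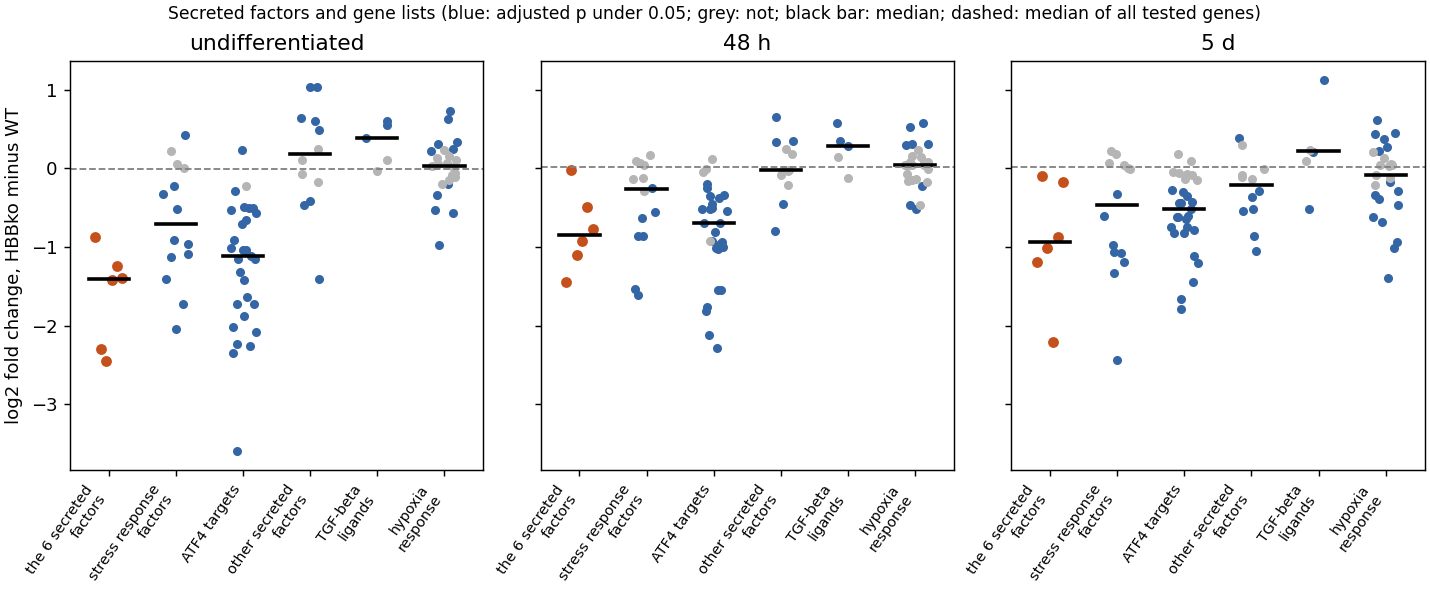
Log2 difference HBBko minus WT (y axis) of the 6 secreted factors (orange, not tested here) and of 5 gene lists (x axis), 1 point per gene, at each stage; blue points passed an adjusted p of 0.05, grey points did not, black bars are medians and the dashed line is the median of all tested genes. The medians of the 6 factors, the stress response factors and the ATF4 targets lie below the dashed line at each stage, and the hypoxia and other secreted factor lists have points on both sides of it.

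Among family members of the factors, few were expressed. For the TGF-beta superfamily, to which GDF15 and INHBE belong, 5 of 30 other ligands were tested, and 3 rose in undifferentiated cells, 3 rose at 48 h, and 2 rose and 1 fell at 5 d. Of all tested genes 20.9% rose in undifferentiated cells, 9.52% at 48 h and 26.5% at 5 d, where 24.8% fell. TGFB1 was at 0.60 ± 0.11 undifferentiated, 0.34 ± 0.11 at 48 h and -0.52 ± 0.11 at 5 d, AMH at 0.10, 0.58 and 1.13, and TGFB3 at 0.55, -0.12 and 0.23. GDF11, the ligand closest to myostatin, was at 0.39 ± 0.08 undifferentiated, 0.28 at 48 h and 0.09 at 5 d, and BMP8B at -0.03, 0.14 and 0.21. At 48 h the count was 1 without replicate 2 or 3 of WT or any HBBko library of that stage. At 5 d it was 1 without replicate 1 of WT or replicate 3 of HBBko. Rescaling to equal sums left none of the 5 lower at 5 d, and 86% of all calls at 5 d were then higher in HBBko. ADM and STC1, the paralogs of ADM2 and STC2, reached at most 0.561 and 0.0275 scaled TPM in any library, and were picked out by their relation after the values were seen. Among relatives of VEGFA, VEGFB was at -0.72 ± 0.09 and PGF at 0.52 ± 0.12 at 5 d (adjusted p = 6.14e-06 and 0.00205). The adrenomedullin-like ADM5 was at 0.46, 0.38 and 0.12 at the 3 stages, and C1QTNF6 and C1QTNF12, of the family of ERFE, were at -0.43 and -0.06 in undifferentiated cells.

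Receptors of the factors and of related ligands were mostly low, with 9 of 23 at a group mean of 1 scaled TPM or more. GFRAL and its coreceptor RET, through which GDF15 signals, reached at most 0.0138 and 0.00567 scaled TPM in any library, and the VEGF receptor KDR 0.00534. CALCRL, the receptor of ADM2, reached 0.146, while its partner RAMP2 was at 1.98 in undifferentiated WT and 2.76 in undifferentiated HBBko cells and at 0.0327 and 0.0220 at 5 d. FLT4, the receptor of VEGFC, went from 33.4 to 3.31 in WT and from 27.9 to 3.53 in HBBko cells between the undifferentiated stage and 5 d. GFRAL, RET, KDR and CALCRL were named by their role after the values were seen. Of 23 receptors, 7 were tested, and ACVR1 and ACVR2B reached a group mean of 1 without passing the filter. The list was drawn by family, and BMPR1A, BMPR2, TGFBR1 and TGFBR2 stand in it as receptors of related ligands. BMPR2 was lower in HBBko at each stage (-0.42 ± 0.08, -0.30 ± 0.08 and -1.39 ± 0.08), and ACVR1B, an activin receptor, was at 0.15, 0.12 and -1.34 ± 0.10. The call of BMPR2 at 48 h was the only one of that stage, and the count was 0 without replicate 3 of WT or replicate 1 or 3 of HBBko at 48 h, and after rescaling to equal sums. TGFBR1, TGFBR2 and BMPR1A did not pass the test at any stage, with log2 differences between -0.21 and 0.22. Of 4 extracellular antagonists and partners tested, 2 fell at 5 d, where 24.8% of all tested genes did: TWSG1 by 0.66 and FSTL3, which binds activins, by 0.36 on the log2 scale. IGFBP4 was at -0.01 and LTBP1 at 0.06.

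Hypoxia response genes, listed because VEGFA is a target of hypoxia-inducible factors, went in both directions. Of 25 tested, 6 rose and 5 fell in undifferentiated cells, 5 rose and 3 fell at 48 h, and 6 rose and 10 fell at 5 d, with medians of 0.03, 0.04 and -0.09. Of all tested genes 20.9%, 9.52% and 26.5% rose and 22.3%, 9.21% and 24.8% fell at the 3 stages, so the undifferentiated counts were near the background. Rescaling to equal sums turned the balance at 5 d to 11 risen and 4 fallen, and 86% of all calls at 5 d were then higher in HBBko. LDHA was at 0.72 ± 0.11 in undifferentiated cells, HK2 at 0.52 ± 0.08 at 48 h and PFKFB3 at -1.40 ± 0.13 at 5 d. EPAS1, or HIF-2alpha, was at 0.11 and 0.07 at the first 2 stages and at -1.01 ± 0.17 at 5 d. In undifferentiated cells 3 rose without replicate 2 of HBBko. At 48 h 3 rose without replicate 2 of WT or replicate 1 of HBBko, 1 fell without replicate 3 of WT or replicate 1 of HBBko at that stage, and 5 fell without replicate 3 of undifferentiated WT.

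Genes of the erythropoietin receptor and STAT5 pathway, which drives ERFE, fell more often than they rose in HBBko cells on the authors' scaling. Of 20 tested, 8 fell and 1 rose in undifferentiated cells, 12 fell and 1 rose at 48 h and 11 fell and 1 rose at 5 d, with medians of -0.16, -0.34 and -0.35. Of all tested genes 22.3%, 9.21% and 24.8% fell and 20.9%, 9.52% and 26.5% rose. CISH, a direct STAT5 target, fell by 0.59, 0.52 and 0.69 on the log2 scale, and SH2B3, which restrains JAK2, fell by 0.67, 0.84 and 0.69. EPOR itself, named for its role with its values known, fell by 0.33, 0.34 and 0.33. The ERFE differences were -1.39, -0.77 and -0.17, and the part of this pathway in them was not tested. A fit of only the undifferentiated groups called 3 fallen. Rescaling to equal sums gave 6 fallen and 5 risen at 5 d, where 86% of all calls were then higher in HBBko.

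Over the 18 libraries, which share line and stage, the Pearson correlations of the 15 pairs of factors on log2(scaled TPM + 1) ran from -0.06 to 0.97 with a median of 0.69. The closest pairs were ADM2 with VEGFA (0.97) and GDF15 with ERFE (0.96), and INHBE with ERFE was the lowest. ADM2 also followed ATF4 (0.97), whereas GDF15 did so less closely (0.78). When each group's mean was subtracted, GDF15 with ADM2 was at 0.92 and INHBE with ERFE at 0.84, over libraries that include replicate 3 of both WT groups named above. Among all tested genes those most like GDF15 over the 18 libraries were RAP1GAP, a Rap GTPase activator, SLC22A23, TRIOBP and NUDT4, with correlations of 0.998, 0.997, 0.996 and 0.996. NUDT4P2, the next in that order (0.995), is a near-identical copy of NUDT4, so its reads may be shared. In WT the mean of RAP1GAP was 35.9, 89.1 and 744 scaled TPM at the 3 stages, and in HBBko 23.8, 46.7 and 404. In all, 1267 of 12004 other tested genes correlated with GDF15 at 0.9 or above, so this likeness was common. The genes most like ADM2 were CTH of cysteine synthesis, the ER-associated degradation gene HERPUD1 and MTHFD2 of folate metabolism (0.99 each), and SESN2 and HERPUD1 were among those most like VEGFA (0.99 each). ERFE was followed most closely by CCNDBP1 (0.997), HMGB2 (0.996) and SLC25A42 (0.995), and by 938 genes at 0.9 or above. STC2 was closest to RAP1A (0.97), ERICH2 (0.96) and the cytokine gene CLCF1 (0.96), and INHBE to ANXA2R (0.94), SCX (0.92) and SMPDL3B (0.92), with 7 genes at 0.9 or above for INHBE.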

How the data were processed

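Total RNA of 18 HUDEP-2 libraries was made into TruSeq libraries, per the labels. Per the submitters' processing notes the build was hg38 and the tools were kallisto and sleuth; versions are not given in the sources used here. The authors deposited a signal per gene (TPM scaled further between libraries, called scaled TPM here) and 3 tables with log2 fold changes, their standard errors (recorded as a score) and p-values. The design assumed normalized values such as TPM; the unit proved to be scaled TPM and the test was kept. Columns named thal were read as HBBko and wen as WT, from the names alone. Replicate numbers carry no stated pairing in the labels. In the data, same-numbered libraries of both lines deviated together (every correlation above 0.1) in undifferentiated cells (0.121 to 0.173) and at 5 d (0.131 to 0.18) but not at 48 h (-0.03 to 0.022). Those of undifferentiated WT and WT at 48 h did so too (0.102 to 0.194).

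The 12005 genes that reached 1 scaled TPM in 3 or more libraries were fitted as log2(scaled TPM + 1) with limma 3.58.1 (eBayes with trend) in R 4.3.3, 18 libraries in 1 fit with 12 residual degrees of freedom. Tests were two-sided with Benjamini-Hochberg adjustment, called at 0.05 in 9 comparisons. The fit was tested on simulated data. The members and lists were chosen with earlier results of these data known. All 6 factors are named; per list and comparison up to 4 called genes of largest size, expressed receptors, relatives and antagonists, and the 3 (for GDF15 5) genes most correlated with each factor, of which 1 is not reported here. Of the list symbols, 6 matched under an older symbol. Alternatives were other pseudocounts, filters, scalings, library weights, a replicate block, fits of fewer groups, leaving out each library and, chosen after seeing the data, leaving out both WT replicate 3 libraries and a replicate block within each stage (6 residual degrees of freedom).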

Additional observations from a re-analysis of the deposited data

Results flagged for a closer look

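For 58 named genes other than the 6 factors, limma tested whether the HBBko minus WT log2 difference itself changed between stages, with Benjamini-Hochberg adjustment over all tested genes. Of all tested genes 13.2% passed from undifferentiated to 48 h and 24.6% from 48 h to 5 d. Many of the named genes were picked because their difference at a stage was called and large in the same libraries. That choice favours a change between stages, so these shares are no fair background and the changes are a description. The following 33 changes passed among the named genes, as values in which a positive sign means that HBBko moved up relative to WT.

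Among stress response factors, the difference in ATF4 changed by 0.41 from undifferentiated to 48 h and by 0.55 from 48 h to 5 d, and that in DDIT3 by -0.70 in the second interval. Among ATF4 targets, CHAC1 changed by 1.31 and 1.08, SESN2 by 0.79 and CTH by 1.32 in the first interval, and PSAT1 by 1.25 and DDIT4 by 1.00 in the second.

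Among secreted factors, PDGFA changed by 1.32, MANF by -0.69, MIF by -0.39 and LGALS3 by -0.38 in the first interval. In the second, MANF changed by -0.88, MIF by -0.39, OSM by -0.60 and TGFB1 by -0.87. TGFB3 changed by -0.67 in the first interval, and AMH by 0.55 and VEGFB by -0.79 in the second. The receptors ACVR1B (-1.46) and BMPR2 (-1.09) and the antagonist TWSG1 (-0.36) changed in the second interval.

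Among hypoxia and STAT5 genes, LDHA changed by -0.49, PFKFB3 by -0.81, HK2 by 0.62, ID1 by -0.53 and BCL2L1 by -0.48 in the first interval. In the second, PFKFB3 changed by -1.22, MXI1 by -0.42, HK2 by -0.65, EPAS1 by -1.08 and PDK1 by -0.76.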

How the results depend on the processing

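Depth is unknown, so precision rests on the 3 libraries of each group, and levels under about 1 scaled TPM (INHBE, ADM2 and STC2 in HBBko) move with the pseudocount. The undifferentiated difference was -2.90 for INHBE and -2.97 for ADM2 with a pseudocount of 0.5, and -0.97 and -1.13 with 5. Of 12005 genes, 5197 were called between the lines in undifferentiated cells, 2249 at 48 h and 6157 at 5 d, and the difference changed for 1582 genes up to 48 h and for 2958 from 48 h to 5 d. A fit of only the groups compared called 2882 undifferentiated and 4275 at 48 h. Library weights called 5189 at 48 h and 4682 for the later change, and rescaling to equal sums 4191 at 48 h. That rescaling moved the share of calls that were higher in HBBko from 50.8% to 84.2% at 48 h and from 51.7% to 86% at 5 d. The other scalings did not do so. At 48 h the share was 44.7% after median-of-ratios scaling, 49% after quantile normalization and 42.9% with the globin genes removed. At 5 d it was 47%, 54.1% and 54.5%. Leaving out 1 library gave 1179 (without WT replicate 3 at 48 h) to 3121 calls at 48 h and 830 (without undifferentiated HBBko replicate 1) to 2481 (without undifferentiated WT replicate 1) for the change up to 48 h. With a replicate block 5390, 2494 and 6313 genes were called at the 3 stages, and with a block within each stage 5596, 2675 and 6484. Apart from the counts of risen factors at 5 d given in the text, neither block moved a count of calls by over 1.5 times. Counts of fallen stress response factors and ATF4 targets stayed within 1.5 times under all alternatives run. Rescaling to equal sums turned the signs of ERFE and INHBE at 5 d and the balance of risen and fallen hypoxia and iron axis genes at 5 d, with the values in the text.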

Other observations

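The summed level of the 6 factors was 238 ± 58.5 scaled TPM (SD, n = 3) in undifferentiated WT, 347 ± 55.4 at 48 h and 1996 ± 57.6 at 5 d, and 90.7 ± 3.96, 199 ± 4.89 and 1218 ± 74.2 in HBBko. Its make-up shifted with the stage in both lines. VEGFA held 59.2% of the sum in undifferentiated WT and 63.8% in undifferentiated HBBko cells, ERFE 57.8% and 58.6% at 48 h. At 5 d GDF15 held 48.2% in WT and 34.5% in HBBko, where ERFE held the larger share (50.6%, against 34.6% in WT).

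Among genes of secretory processing, through which all 6 products pass, 24 convertases, signal peptidase, translocon and signal recognition genes were tested. On the authors' scaling 10 rose and 2 fell in HBBko cells at 5 d, where 26.5% of all tested genes rose and 24.8% fell. After rescaling to equal sums 19 rose and 1 fell. That rescaling also made 86% of all calls at 5 d higher in HBBko, against 51.7% on the authors' scaling. Hepcidin, the hormone that ERFE lowers, is a liver product: HAMP, named after its value was seen, reached at most 0.184 scaled TPM in any library. Of 6 tested genes of the iron and hepcidin axis 4 fell at 5 d on the authors' scaling, against 24.8% of all tested genes. The ferritin genes FTH1 and FTL were at -0.92 and -0.72 on the log2 scale. After the rescaling to equal sums, with its higher share of risen calls given above, 2 fell and 3 rose.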
